A study of Rattus norvegicus with 6 samples.

Results

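Reads of 5 miRNA precursors, rno-mir-22, rno-mir-34a, rno-mir-34b, rno-mir-34c and rno-mir-210, were followed in a small RNA sequencing study of AR42J cells, an established rat line of the exocrine pancreas. They are 5 of the 383 precursors with reads, and were picked by name as miRNAs of cellular stress. All 5 had reads. The choice was made with levels and fold changes of these same libraries known, so those are given here as a description; arm ratios and read ends did not enter the choice. One group of 3 libraries came from cells exposed to 200 µM sodium taurocholate for 30 min, and the other group of 3 from untreated cells. Taurocholate is a bile salt used to injure acinar cells as a model of acute pancreatitis. Both groups were grown in the same serum-containing medium, and the labels name no other treatment. The labels do not say whether the replicates were separate cultures, and the spread behind each p-value is that between libraries, which could be purely technical.

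A miRNA is cut from 1 arm of a hairpin precursor, the 5p or the 3p arm, and bases 2 to 8 of the mature strand, the seed, pair with target mRNAs. The miR-34 genes are direct targets of the tumour suppressor p53 and restrain the cell cycle in many cell types. miR-210 is a standard target of hypoxia-inducible factor and acts on mitochondrial metabolism. miR-22 is a widely expressed miRNA linked to cell cycle arrest and, in heart muscle, to hypertrophy.

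The mature strands that the results turn on are given here to show which members share a seed. All 10 mature strands of the members matched RefSeq, in assembly GRCr8. Those shown run 5′ to 3′ with the seed in capitals. The strands of the miR-34 5p arm have 1 seed in common:
miR-34a-5p: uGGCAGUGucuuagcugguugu
miR-34b-5p: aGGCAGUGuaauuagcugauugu
miR-34c-5p: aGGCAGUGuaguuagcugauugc
The 3p strands of miR-34b and miR-34c share another:
miR-34b-3p: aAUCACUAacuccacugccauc
miR-34c-3p: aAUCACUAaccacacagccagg
The leading strands of miR-22 and miR-210 each have a seed of their own among the members:
miR-22-3p: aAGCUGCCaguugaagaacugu
miR-210-3p: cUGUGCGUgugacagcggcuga

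miR-34b-5p and miR-34c-5p were identical at 21 of 23 bases and differed by A11G and T23C, counted from base 1 at the 5′ end of miR-34b-5p. Compared position by position with no gap allowed, miR-34a-5p was identical to either at 11 of the 22 bases. miR-34a-5p lies at chr5:165815971-165815992 on the plus strand, within the span of the lncRNA gene LOC103692514. miR-34b-5p (chr8:60306657-60306679) and miR-34c-5p (chr8:60306133-60306155) lie on the minus strand, with 441 bases between their hairpins, and both hairpins overlap the span of the protein-coding gene Hoatz. miR-22-3p lies at chr10:60805387-60805408 on the plus strand, in no other annotated gene. miR-210-3p lies at chr1:205755946-205755967 on the minus strand, where the table also places Mir3574 and the lncRNA gene LOC102553043. The files mark all 719 miR-210 lines with a status R, which they do not explain; the other member lines so marked are the 29 each of miR-34b and miR-34c whose reads align to both. The table gives gene spans alone, so exon or intron is not stated.

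Each library held 3343552, 3780777 and 3637092 precursor reads in the taurocholate group and 3070227, 3987307 and 2791878 in the untreated group. The first taurocholate library stood apart: 50.9% of its reads aligned with no edit, against 62.3% to 65.7% in the other libraries. Levels are given as CPM, reads scaled to a fixed total of precursor reads per library, where a read is 1 whole small RNA. The difference in how well each miRNA is captured was not measured, and fewer cells making a miRNA cannot be told apart from less of it per cell. Among acinar markers, miR-148a held 284170 to 421890 CPM, while miR-216a, miR-216b and miR-217 averaged 0.133, 0.225 and 0.243 CPM over the 6 libraries. The summed acinar list thus rests on miR-148a. Markers of other cells were present in both groups: the 4 stromal precursors summed to 11853 to 16769 CPM with taurocholate and 14899 to 16976 CPM untreated, and the 4 blood and immune ones to 1946 to 3649 CPM with taurocholate and 2065 to 3859 CPM untreated. Most of the stromal sum was miR-143, with a mean of 11860 CPM over the 6 libraries, while miR-214 averaged 71.7 CPM. Most of the blood and immune sum was miR-142, with a mean of 2561 CPM. miR-451, miR-144 and miR-223 averaged 355, 7.04 and 2.38 CPM. Neuroendocrine markers summed to 41206 to 54718 CPM with taurocholate and 54968 to 59673 CPM untreated, nearly all of it miR-7a. That sum was lower in every taurocholate library, a pattern seen in 7.65% of tested features. miR-375, the other marker, had 58.6, 6.08 and 77.5 CPM with taurocholate and 41.4, 2.51 and 7.16 CPM untreated, and its groups overlapped. The 4 muscle precursors summed to 23.5 to 46.4 CPM with taurocholate and 25.3 to 99.3 CPM untreated. miR-1b-3p, a muscle-type miRNA outside that list and named after its values were seen, had 105, 80.1 and 574 CPM with taurocholate and 1266, 9.53 and 38.7 CPM untreated, highest in the first untreated library, where miR-133a was also highest. The liver marker miR-122 held 6.88 to 23.9 CPM with taurocholate and 18.6 to 26.7 CPM untreated. All listed markers had reads in at least 1 library, and their part in the results below was not tested.

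Of 658 miRNA features (a precursor arm, or a set of arms that reads match equally), 340 were abundant enough to test, and all 10 member features were among them. With edgeR's quasi-likelihood test and Benjamini-Hochberg adjustment, 0 of 340 passed an adjusted p of 0.05 (0.0%), so no member did. Without adjustment 58 features had p under 0.05, 21 of them higher and 37 lower with taurocholate. That split was 27 higher and 29 lower with DESeq2 size factors and 14 higher and 11 lower with library totals. The DESeq2 Wald test called 12 of 337 features (3.56%), none of them a member. Log2 fold changes, taurocholate over untreated, were positive for 6 member features and negative for 4, with a median of 0.06, against 153 positive, 187 negative and a median of -0.04 over all features tested. Among the members 1 had every taurocholate library above every untreated one, a pattern seen in 6.18% of the tested features, and 1 had every taurocholate library below, seen in 7.65%. Both shares rest on values known when the members were chosen.

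**Figure D1:**
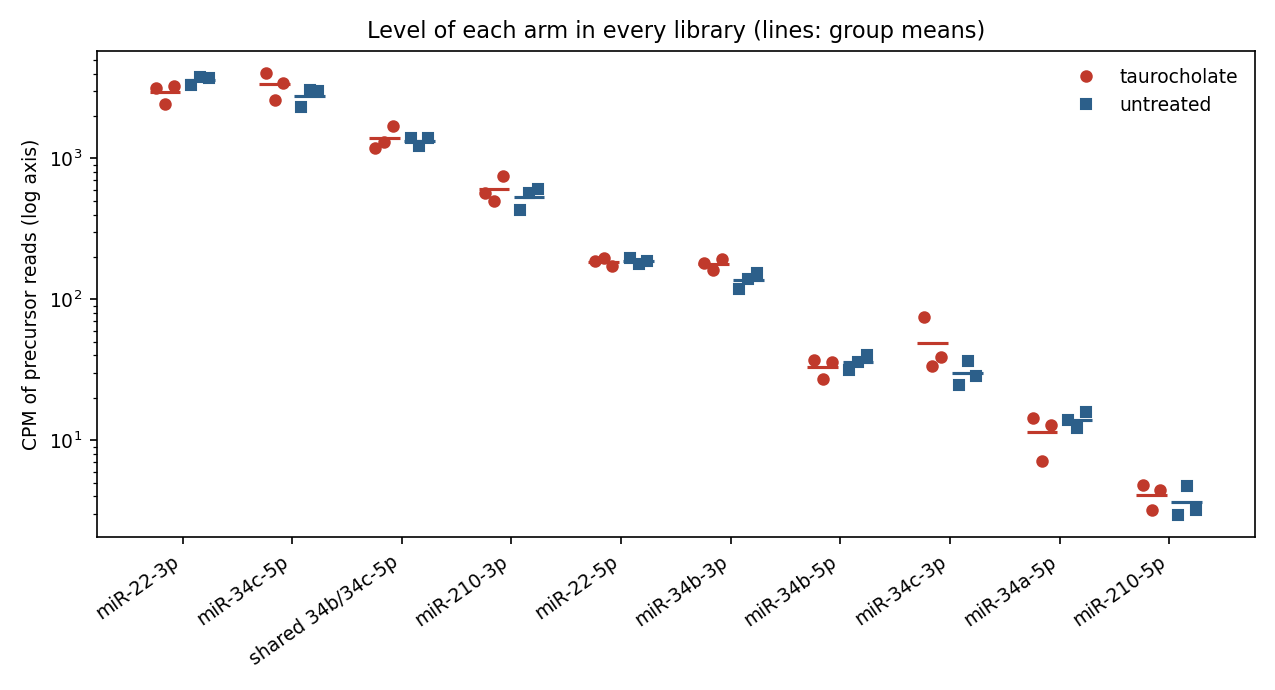
Level of each member arm in CPM (log axis), 1 point per library, taurocholate left of untreated, with lines at the group means. miR-22-3p and miR-34c-5p lead with 2299 to 4048 CPM, and miR-210-5p is lowest with 2.93 to 4.79 CPM.

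miR-22-3p and miR-34c-5p were the most abundant member strands, and their ranges over the 6 libraries overlapped. Reads that fit miR-34b-5p and miR-34c-5p equally came next, followed by miR-210-3p, and each of these stood clear of its neighbours in every library. miR-22-5p and miR-34b-3p overlapped each other, as did miR-34b-5p and miR-34c-3p below them. miR-34a-5p lay lower still, with 7.14 to 15.8 CPM, and miR-210-5p was the rarest strand.

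miR-22 came almost wholly from its 3p arm. miR-22-3p had 3148, 2425 and 3278 CPM in taurocholate libraries, against 3317, 3770 and 3737 CPM in untreated libraries. The groups did not overlap, with taurocholate lower, the closest pair being 3278 CPM with taurocholate and 3317 CPM untreated. The log2 fold change was -0.36 (SE 0.09, edgeR adjusted p 0.133). It was -0.30 with DESeq2 size factors (edgeR adjusted p 0.202) and -0.29 with library totals (edgeR adjusted p 0.649), so the small SE depended on the scaling. The partner strand, miR-22-5p, had 187, 198 and 171 CPM with taurocholate and 198, 179 and 188 CPM untreated, so the groups overlapped, with a log2 fold change of -0.06 (SE 0.21). The sign of that value depended on the scaling: with DESeq2 size factors it was 0.0035. By Pearson's r of log2 CPM over the 6 libraries, among 137 features of at least 100 CPM, the features most like miR-22-3p were let-7a-5p (r = 0.993, rho = 0.943), reads shared by let-7a-5p and let-7c-5p (r = 0.988, rho = 0.886) and let-7e-5p (r = 0.985, rho = 0.943). let-7a-5p had 5878, 3876 and 6356 CPM with taurocholate and 5964, 7789 and 7745 CPM untreated. These correlations share the libraries and their totals, and are a description.

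The miR-34 genes together took 5533, 4157 and 5412 CPM in taurocholate libraries and 3875, 4485 and 4612 CPM in untreated libraries, and the groups overlapped. Most of it was the 5p strand of miR-34c, the downstream gene of the pair on chromosome 8, and most of the rest fitted the 5p strands of miR-34b and miR-34c equally. Reads aligned to miR-34c-5p alone made up 73.2%, 62.9% and 63.3% of miR-34 reads with taurocholate, and 59.3%, 67.7% and 64.8% untreated. Reads shared between miR-34b-5p and miR-34c-5p made up another 21.3%, 31.6% and 31.5% with taurocholate, and 35.8%, 27.3% and 30.0% untreated. By contrast miR-34a-5p, the strand most often studied as the p53 target, held 0.172% to 0.259% of miR-34 reads with taurocholate and 0.274% to 0.361% untreated.

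The shared reads were 28108 in all, in 9 sequences, and 1 of these made up 99.6% of them. It is shown beside the 2 reads that match a mature strand exactly, to show where the ambiguity lies; the capital marks its last base:
shared read: aggcagtgtagttagctgattgT
exact miR-34c-5p read: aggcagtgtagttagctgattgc
exact miR-34b-5p read: aggcagtgtaattagctgattgt
With base 1 at the 5′ end, the shared read differs from miR-34b-5p by A11G and from miR-34c-5p by C23T, 1 edit each way. It had 28006 reads, the exact miR-34c-5p read 34564 and the exact miR-34b-5p read 153. Base 11 of the mature strand separates the genes, with A in miR-34b-5p and G in miR-34c-5p. Of 89426 reads that begin at the annotated start and cover it, 322 had A, and of 815 that begin 1 base earlier, 377 had A. Over both starts A made up 0.743%, 0.675% and 0.684% of reads with taurocholate and 0.790%, 0.864% and 0.942% untreated, so the groups did not overlap. Within each start taken alone the groups overlapped, and the difference was not tested. Among 28199 full-length reads from the annotated start ending in T, the base that ends miR-34b-5p, 155 had A at base 11. Reads of 23 nt with the miR-34c sequence up to base 22 ended in C in 34564 cases, in T in 28006, in A in 8064 and in G in 1783. Giving the shared reads to miR-34c set its 5p share of all miR-34 reads at 94.5%, 94.5% and 94.8% with taurocholate and 95.1%, 95.0% and 94.8% untreated.

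miR-34c-5p, counted without the shared reads, had 4048, 2613 and 3427 CPM with taurocholate and 2299, 3036 and 2989 CPM untreated. Taurocholate libraries 1 and 3 lay above all untreated ones and library 2 lay among them. Its log2 fold change was 0.21 (SE 0.10). Adding the shared reads, a choice made after the data were seen, gave 0.15. The shared reads alone had 1178, 1316 and 1703 CPM with taurocholate, against 1386, 1223 and 1385 CPM untreated, which gave 0.02 (SE 0.20) on the log2 scale. The features most like miR-34c-5p over the 6 libraries were mir-196a-5p (r = 0.995, rho = 0.943), mir-101b-3p (r = 0.995, rho = 1.0) and mir-503-5p (r = 0.989, rho = 1.0).

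The partner strand, miR-34c-3p, had 74.8, 33.6 and 39.0 CPM in taurocholate libraries and 24.8, 36.4 and 28.7 CPM in untreated libraries. The first taurocholate library was high, the others lay between 24.8 and 39.0 CPM, and the groups overlapped. The log2 fold change was 0.62 (SE 0.26), and 0.33 without that library. miR-34b-3p had 181, 161 and 195 CPM with taurocholate, against 119, 140 and 153 CPM untreated. Every taurocholate library lay above every untreated one, with a log2 fold change of 0.33 (SE 0.13); it stayed between 0.29 and 0.42 when any 1 library was left out. miR-34b-5p reads of its own had 37.1, 27.2 and 35.7 CPM with taurocholate and 31.6, 35.9 and 40.5 CPM untreated, and the log2 fold change was -0.17 (SE 0.13).

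miR-34a-5p was counted 48, 27 and 47 times with taurocholate and 43, 49 and 44 times untreated. The second taurocholate library was low and the others were alike. On the log2 scale the fold change was -0.38 (SE 0.22), or -0.20 without that library. No read came from miR-34a-3p: 0 of 258 miR-34a reads, which allows a share of up to 1.16%, counting error only. Outside the members, miR-449a-5p and miR-449c-5p carry the same seed as the miR-34 5p strands, and both were scarce. miR-449a-5p had 20.3, 12.7 and 22.5 CPM with taurocholate and 16.3, 25.1 and 26.5 CPM untreated, which gave -0.36 (SE 0.20) as log2 fold change. miR-449c-5p had 5.38, 1.32 and 6.32 CPM with taurocholate and 4.56, 6.27 and 8.24 CPM untreated, a log2 fold change of -0.65 (SE 0.46).

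miR-210-3p, the strand induced in hypoxia, had 572, 496 and 753 CPM in taurocholate libraries and 432, 570 and 605 CPM in untreated libraries. The third taurocholate library was the highest of all and the other two lay among the untreated ones. The log2 fold change was 0.13 (SE 0.15). It was 0.01 without that library, 0.26 without the first taurocholate library and 0.20 without the second untreated library. The features most like it were mir-423-3p (r = 0.947, rho = 0.829), mir-140-5p (r = 0.941, rho = 0.943) and mir-27a-3p (r = 0.919, rho = 0.943). miR-210-5p was counted 16, 12 and 16 times with taurocholate and 9, 19 and 9 times untreated. The groups overlapped, and the estimate on the log2 scale was 0.09 (SE 0.30).

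**Figure D2:**
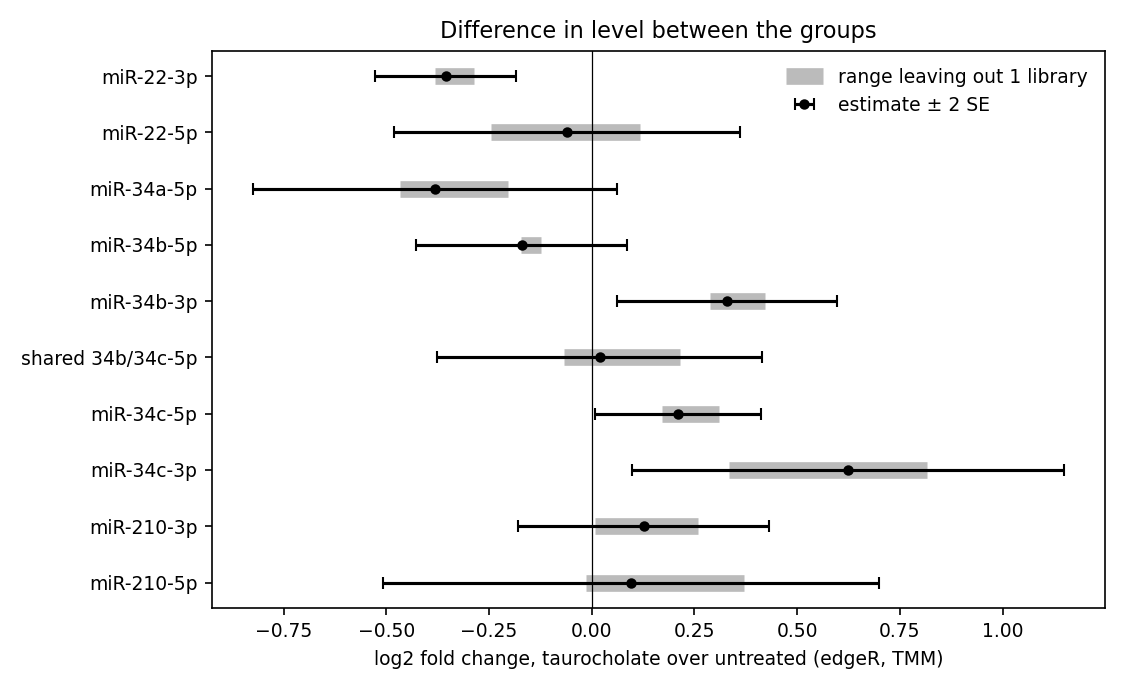
Log2 fold change of each member arm, taurocholate over untreated, from edgeR with TMM scaling. Points and bars are the estimate ± 2 SE, and grey bands are the range when 1 library is left out. The bands of miR-22-5p, the shared reads and miR-210-5p cross 0. A bar clear of 0 does not mean a p under 0.05. The bars of miR-34c-5p and miR-34c-3p lie above 0, with edgeR p of 0.077 and 0.051 without adjustment.

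Other miRNAs linked to the same regulators gave no call. Of 14 tested features from 9 p53-linked precursors outside the miR-34 genes, 0 passed the edgeR threshold (background 0.0%), with 9 positive and 5 negative log2 fold changes and a median of 0.10. The smallest p belonged to miR-145-3p (-0.26, SE 0.12) and miR-143-3p (-0.19, SE 0.10), which also mark stroma. Of 23 features from 13 hypoxia-linked precursors, 0 passed, with 15 positive, 8 negative and a median of 0.09. In 4 of the 23 every taurocholate library lay above every untreated one, against 6.18% of all tested features, and in 0 did every library lie below. These were miR-24-3p, miR-24-5p, miR-27a-5p and miR-27b-5p. Both arms of miR-24 are among them, so they are not 4 independent miRNAs, and an excess was not tested. miR-27b-5p had 17.6, 8.46 and 11.5 CPM with taurocholate and 5.54, 7.77 and 5.73 CPM untreated, a log2 fold change of 0.88 (SE 0.26, edgeR adjusted p 0.153). miR-26a-5p had 9808, 6289 and 8717 CPM with taurocholate and 9757, 9356 and 10359 CPM untreated (-0.33, SE 0.10, edgeR adjusted p 0.178).

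Which arm of the hairpin gave the miRNA differed between the members by a wide margin. The arm ratio was taken as log2 of 5p over 3p reads, with 0.5 added to each, for 120 precursors with at least 10 reads in every library. miR-22 was 3p-led, with ratios of -4.07, -3.61 and -4.26 with taurocholate and -4.07, -4.39 and -4.31 untreated. miR-210 was the most one-sided of the 4 members with both arms, with -6.86, -7.23 and -7.38 with taurocholate and -7.13, -6.87 and -7.47 untreated. miR-34c was 5p-led, with 5.76, 6.28 and 6.45 with taurocholate and 6.53, 6.38 and 6.70 untreated. In none of these 3 did the groups separate (two-sided exact permutation p of 0.3, 1.0 and 0.2).

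miR-34b, counted by reads of its own, was 3p-led and its groups did not overlap. Its ratio was -2.28, -2.56 and -2.44 with taurocholate and -1.91, -1.97 and -1.92 untreated, a difference of -0.49. In percent, the 3p arm held 83.0%, 85.5% and 84.5% of miR-34b reads with taurocholate and 79.1%, 79.7% and 79.1% untreated. The exact permutation p was 0.1, the smallest that 3 against 3 libraries allow, and 0.545 after adjustment over the 120 precursors; 18.3% of those had groups that did not overlap. Which arm led depended on where the shared reads were counted. Of the 28108 shared reads 28006 were 1 sequence. It has G at base 11, as miR-34c-5p does, and T at base 23, as miR-34b-5p does. Giving all shared reads to miR-34b is therefore an outer limit. At that limit the 3p arm held 12.9%, 10.7% and 10.1% of reads with taurocholate and 7.76%, 10.0% and 9.71% untreated, so the 5p arm led.

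**Figure D3:**
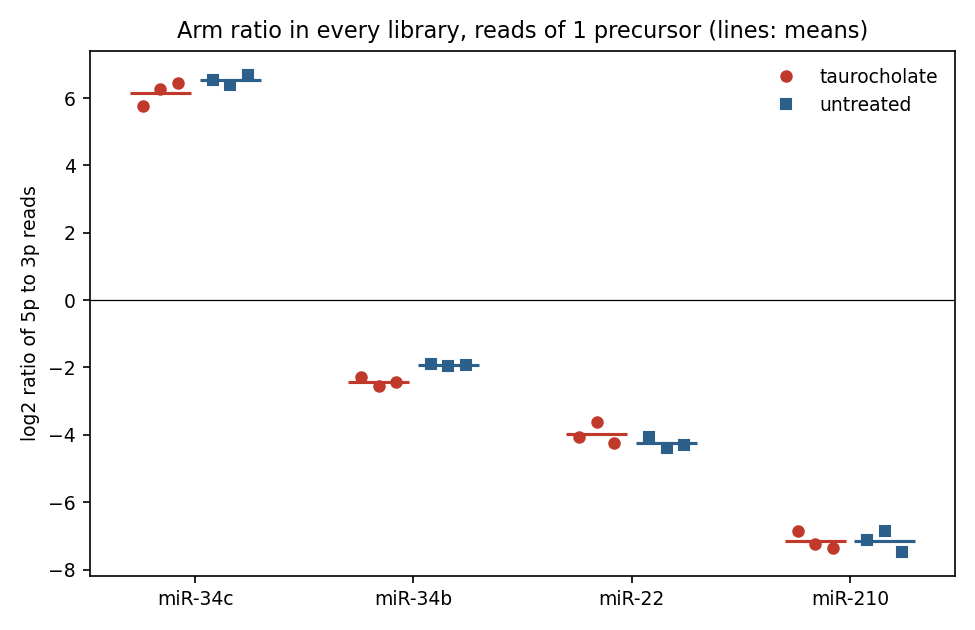
Log2 ratio of 5p to 3p reads in every library, without reads shared between precursors; lines are group means and the horizontal line marks equal arms. miR-34c lies between 5.76 and 6.70, and miR-34b, miR-22 and miR-210 lie below 0.

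The ends of the reads were compared over the 154 arms that had at least 50 reads in every library, by 4 measures: the share of reads at the most common start, the share at the most common end, the mean length, and the share whose last base is a mismatch to the precursor. Of 28 member values, 3 separated the groups, against 24.7% over all 616 pairs of arm and measure. By measure, groups did not overlap in 9.74% of arms for the main start, 42.2% for the main end, 28.6% for mean length and 18.2% for the last base. The smallest adjusted p of a member was 0.405. With 3 against 3 libraries the exact permutation p cannot go below 0.1. No value could therefore pass the threshold, and that none of the 28 did carries no information on change.

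Starts were tight in miR-22-3p and miR-34c-5p, where a mean of 99.7% and 99.1% of reads over the 6 libraries began at 1 base. Such starts were common: the median over the 154 arms was 98.2%, with 33 arms above miR-22-3p and 61 above miR-34c-5p. In miR-210-3p 94.2% of reads began at the main start, and 5.48% of its reads began 1 base earlier. miR-34b-5p had no single start, and 5 of the other 153 arms had a lower share at the main one. Of its own reads 54.2% began 1 base before the annotated start and 45.5% at it. These are the leading reads of each kind, shown because the extra first base shifts the seed by 1 position:
earlier start: taggcagtgtaattagctgatt
annotated start: aggcagtgtaattagctgattgt
The earlier read made up 20.2%, 31.1% and 24.6% of miR-34b-5p reads with taurocholate and 33.0%, 42.0% and 24.8% untreated. The annotated read made up 20.2%, 21.4% and 27.7% with taurocholate and 19.6%, 15.4% and 25.7% untreated. Both overlapped between the groups. The shared reads are not in this count. Among them 47 reads of 1 sequence had the annotated start with A at base 11, as miR-34b-5p does, and C at base 23. Another 41 reads had the earlier start, as taggcagtgtagttagctgattgT, with the miR-34c base G in place of that A.

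The 3′ ends varied more. Among the leading strands of miR-22, miR-34c and miR-210, the mean share of reads at the most common end was lowest in miR-210-3p, at 49.0%. It was 88.3% in miR-22-3p and 74.3% in miR-34c-5p, counted without the shared reads. Over the 154 arms the median was 57.1%, with 43 arms below miR-210-3p and 8 above miR-22-3p. Among the members miR-34b-5p (40.9%) and miR-34c-3p (47.2%) lay below miR-210-3p. Nearly all shared reads end in T, a mismatch to miR-34c. T ended 29.6% to 48.4% of the 23 nt reads with the miR-34c sequence up to base 22. Leaving out the shared reads lowers the mismatched share of miR-34c-5p, so strands are not ranked by it. miR-210-3p reads were 22, 23 and 24 nt long in 35.1%, 33.8% and 23.5% of cases. A mismatched last base was found in 39.8%, as a mean over the 6 libraries. The 3 leading miR-210-3p reads show the range of ends; a capital marks a mismatched base:
22 nt, no edit: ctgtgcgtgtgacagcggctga
24 nt, 1 inserted base: ctgtgcgtgtgacagcggctgaat
23 nt, T23A: ctgtgcgtgtgacagcggctgaA
The 22 nt read made up 16.7%, 18.3% and 22.04% of miR-210-3p reads with taurocholate and 11.1%, 17.5% and 17.9% untreated. The 24 nt read made up 7.95%, 16.3% and 10.8% with taurocholate and 18.8%, 15.5% and 14.2% untreated. The read ending in the mismatched A made up 11.4%, 13.9% and 15.0% with taurocholate and 6.86%, 10.9% and 11.1% untreated, the one of these 3 in which the groups did not overlap. In miR-210-5p, 80 of 81 reads carried A14C relative to the precursor (98.8%, 95% exact binomial interval 93.3% to 99.97%, counting error only), and the leading read agccactgcccacCgcacactg had 58 of them.

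**Figure D4:**
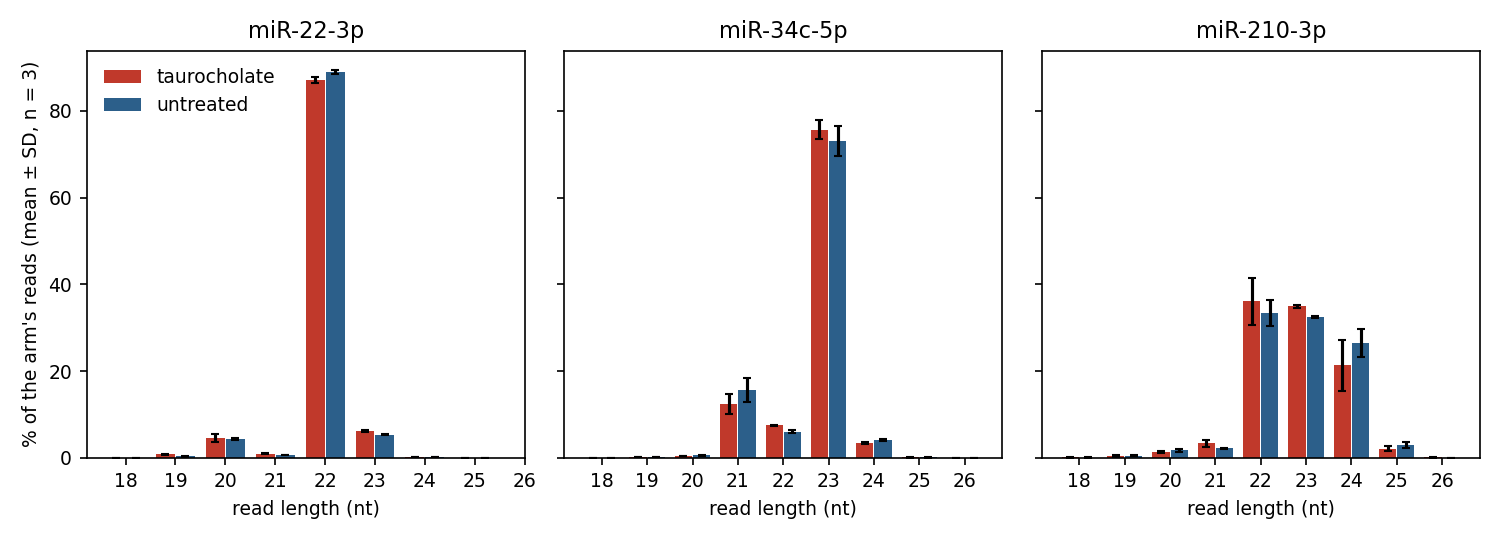
Read length of miR-22-3p, miR-34c-5p and miR-210-3p as a percent of the arm's reads, mean ± SD over 3 libraries, taurocholate left of untreated. miR-22-3p is mostly 22 nt and miR-34c-5p mostly 23 nt, while miR-210-3p spreads over 22 to 24 nt.

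The member values that separated the groups were 2 of miR-22-3p and 1 of miR-34c-3p, each with an exact permutation p of 0.1 and an adjusted p of 0.405. miR-22-3p reads stopped at the main end in 86.4%, 87.8% and 88.1% of cases with taurocholate and in 89.6%, 89.2% and 88.7% untreated. Groups that did not overlap were common in this measure, as given above. miR-34c-3p reads stopped at its main end in 62.4%, 48.8% and 54.2% of cases with taurocholate and in 34.2%, 46.2% and 37.5% untreated, on 76 to 250 reads a library.

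The last base of miR-22-3p was a mismatch in 45.1%, 24.4% and 25.002% of reads with taurocholate, against 23.4%, 23.6% and 22.99% untreated, a difference of 8.17 percentage points. Without the first taurocholate library, the one with the most edits over all reads, the difference was 1.37 points. In that library 28.8% of miR-22-3p reads ended in a mismatched G, against 1.79% and 2.20% in the other taurocholate libraries and 6.01%, 1.30% and 1.42% untreated. The summed arms that are not members moved with it: 22.2% of their reads ended in a mismatched G in the first taurocholate library, against 1.55% and 1.92% in the other taurocholate libraries and 5.42%, 1.23% and 1.49% untreated. Mismatched A at the end of miR-22-3p reads was at 7.71%, 10.4% and 9.70% with taurocholate and 5.36%, 6.64% and 7.34% untreated, with no overlap. The summed arms that are not members did the same, with 8.87%, 10.9% and 11.6% with taurocholate and 6.80%, 8.56% and 8.66% untreated. Of miR-210-3p reads 13.2%, 15.9% and 16.8% ended in a mismatched A with taurocholate and 7.91%, 12.4% and 13.1% untreated. miR-34c-5p reads, without the shared ones, did so in 12.0%, 18.9% and 20.4% with taurocholate and 13.3%, 13.96% and 15.3% untreated, with overlap.

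**Figure D5:**
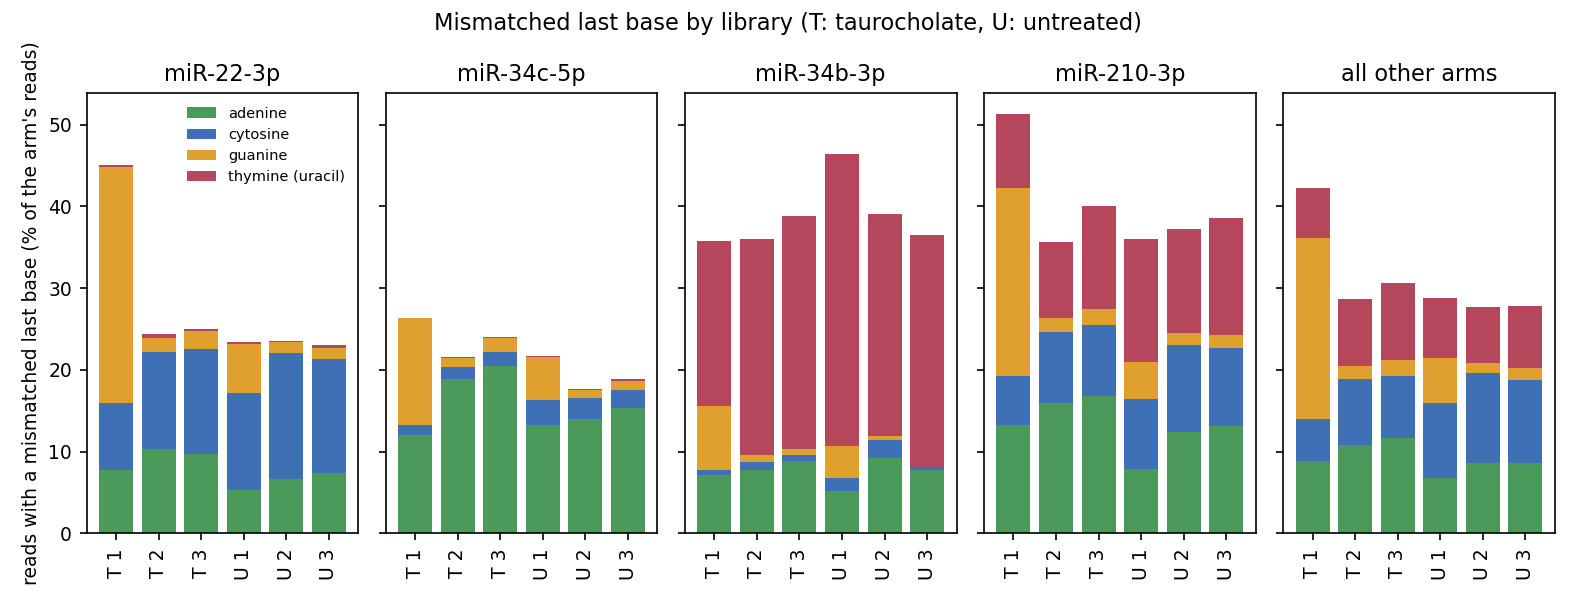
Share of an arm's reads whose last base is a mismatch, stacked by that base, in every library (T, taurocholate; U, untreated), for 4 member arms and for all other arms together. The guanine part of the first taurocholate library is 28.8% in miR-22-3p and 22.2% in the other arms, and thymine leads in miR-34b-3p. miR-34c-5p is drawn without the reads shared with miR-34b-5p, nearly all of which end in T.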

How the data were processed

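Small RNA of all 6 libraries was read on an Illumina NextSeq after deacylation, removal of 3′ cyclic phosphates, 5′ phosphorylation and demethylation, per the labels' protocols. FastQC, cutadapt and Novoalign 2.07.11 were used, per the submitters' processing notes; a genome build is not given in the sources used here. Per the file headers, the authors deposited counts: a line aligns 1 read sequence, with its number of reads, to a precursor. Tested on the files, reads were 16 to 28 nt long and carried at most 1 edit. Reads aligned to tRNA were not used.

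Each read sequence was counted 1 time per library. Arms were set by the middle of the precursor, from the RefSeq hairpin for 274 precursors, the gene table's length for 86 and the span of the reads for 20; 3 were kept as 1 arm. The files' precursors began 5 bases before the RefSeq hairpin in 213 of 214 precursors that could be compared, the 5 members included. Reads matching several precursors formed combined features. Over the whole table every line of a read aligned to several precursors (58806 lines) carries a status R, the shared miR-34b and miR-34c reads included, and so do 17184 lines of reads aligned to 1 precursor. All miR-210 lines are of the second kind and were counted; whether their reads also match elsewhere was not tested.

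Counts were tested in edgeR 4.0.16 (R 4.3.3) by quasi-likelihood with TMM, filterByExpr and Benjamini-Hochberg adjustment at 0.05, with group as the sole term; DESeq2 1.42.0 was an alternative. CPM values carry no TMM factor and fold changes do. Arm ratios and read ends went into exact permutation tests, two-sided, in Python 3.11.15, adjusted over all precursors, or all pairs of arm and measure. The edgeR test was tried on simulated counts of 340 features, 40 of them changed, in 5 runs. It recovered 29% of 2-fold and 80% of 4-fold changes on average. A count of 0 called features thus does not show that nothing changed. No unique molecular identifiers were used, so intervals cover counting error only.

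The members, the p53-linked and hypoxia-linked lists and the markers were chosen with earlier results of these data known. Named were every member arm, the 3 features most like each leading arm, the 2 list members of smallest p, and the leading reads of each arm. Deviations of same-numbered libraries from their group means correlated at r = 0.195, 0.623 and 0.133 over 266 features of at least 10 CPM. The numbers come from the sample titles, and these values do not settle whether they pair the libraries. The main tests left pairing out, and only the replicate block used it. The third taurocholate library correlated more with the first untreated one (0.475).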

Additional observations from a re-analysis of the deposited data

How the results depend on the processing

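The number of features called was 0 under library totals, DESeq2 size factors, no filter on low counts, reads with no mismatch and each library left out, and 12 by the DESeq2 Wald test. With the replicate block it was 0, the log2 fold change of miR-22-3p was -0.36, and the block changed no call for any result here; its exact sign-flip p cannot go below 0.25. The fold change of miR-22-5p turned to 0.0035 with DESeq2 size factors, 0.0027 by the DESeq2 Wald test and 0.0080 with no filter. The arm ratio difference of miR-210 turned to -0.89 with reads of no mismatch, where the 5p arm loses nearly all its reads, and to -0.0088 with reads of 20 to 24 nt. The difference in reads at the main start of miR-210-3p turned to -0.0889 points with reads of no mismatch. With each read sequence counted 1 time, differences turned to -0.54 (main start), 0.0089 nt (mean length) and -2.40 (mismatched last base) for miR-210-3p, to -2.92 (last base) for miR-22-5p, to 3.64 and 0.86 (main start) for miR-34b-3p and miR-34b-5p, to 0.045 nt (mean length) for miR-34c-3p, and to -1.44 (main end) and -0.13 nt (mean length) for miR-34c-5p. The causes were not tested.

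Leaving out 1 library gave log2 fold changes of -0.25 to 0.12 for miR-22-5p, -0.068 to 0.22 for the shared reads and -0.013 to 0.37 for miR-210-5p, and arm ratio differences of -0.16 to 0.15 for miR-210, 0.09 to 0.42 for miR-22, -0.57 to -0.43 for miR-34b and -0.52 to -0.17 for miR-34c. Differences at the main start ran from -0.23 to 0.70 for miR-210-3p, -1.87 to 0.63 for miR-34b-3p and -7.93 to 1.77 for miR-34b-5p. Mean length ran from -0.015 to 0.0026 nt for miR-22-3p and -0.010 to 0.054 nt for miR-34b-3p, and mismatched last base from -0.72 to 6.63 for miR-22-5p and -5.48 to 3.53 for miR-34b-5p. At 9 to 49 reads a library, miR-210-5p and miR-34a-5p carry wide counting error.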
